A study of Trichoderma asperellum with 12 samples.

Results

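The catalase genes of the fungus Trichoderma asperellum TJ01 were followed in mycelium exposed to dichlorvos, an organophosphate insecticide. Members were the genes whose first KEGG orthology description contains the word catalase, together with 4 genes listed by identifier for their response to dose (jgi_Trias1_52822, jgi_Trias1_48513, jgi_Trias1_71163 and jgi_Trias1_197596). Together they made 9 of the 11647 genes in the table. All 4 listed genes also carry the word catalase in their description, so 5 members entered by annotation alone. The listed genes were chosen by their FPKM across the doses, for the shapes described here, so their values in every contrast are given as a description with no test.

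Catalases split hydrogen peroxide, a reactive by-product of respiration and of peroxisomal oxidases, into water and oxygen. Typical catalases are haem enzymes with that main activity, and in fungi some are peroxisomal and others are secreted or associated with spores. Catalase-peroxidases are a separate family of haem enzymes, related to class I peroxidases, that split hydrogen peroxide and also use it to oxidise other substrates.

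Mycelium of the single strain TJ01 was grown in PD medium, moved to Burk broth (a nitrogen-poor medium) and shaken for 24 h (180 rpm, 28 °C) with dichlorvos at 0 (control), 100, 500 or 1000 μg/mL. Each of the 4 groups had 3 mRNA sequencing libraries, 12 in all. The deposited values are FPKM, fragments scaled to transcript length and to the mapped fragments of the library, so that levels of different genes can be compared. The study's methods, after describing culture, treatment and sequencing, say that each experiment was repeated 3 times. Neither they nor the labels say outright that the 3 libraries of a group came from separate cultures. Where they did not, p-values measure only a technical spread, and with FPKM alone the sequencing depth is unknown. In such bulk samples, fewer cells with a transcript and less of it per cell cannot be told apart.

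Control replicate 1 stood apart from the other controls. Across genes, its log2(FPKM + 1) correlated with the other control libraries at r = 0.897 and 0.895, against 0.984 between those libraries and at least 0.970 within each treated group. Of the 8916 genes with a mean of at least 1 FPKM, which were the genes tested, 3581 (40.2%) differed there by over 2-fold from their mean in control replicates 2 and 3. Its median over these genes was 25.7 FPKM, against 15.2 and 16.4 in the other controls. Differences from the control are therefore also given without it, and its part in the results beyond those values was not tested.

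By annotation, 7 members are typical catalases (K03781, EC 1.11.1.6) and 2 are catalase-peroxidases (K03782, EC 1.11.1.21), the latter being jgi_Trias1_197596 and jgi_Trias1_140270. The label catalase was weakest for jgi_Trias1_48513, whose best KEGG match had a bit score of 441, against 544 to 1365 for the others. Its closest protein is described as catalase domain-containing, and like jgi_Trias1_197596 it had no gene ontology term for function or process. Of the typical catalases, only jgi_Trias1_369646 was described by its closest protein as peroxisomal. No other gene of the table had the word catalase in any annotation column. Of the 9 members, 8 passed the filter at a mean of 1 FPKM, and jgi_Trias1_46857 did not.

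Among the listed genes, jgi_Trias1_197596, a catalase-peroxidase, was higher at every dose than at the dose before. Its levels were 3.55, 13.9 and 16.2 FPKM in the control libraries, 24.0, 29.8 and 37.9 FPKM at 100 μg/mL, 46.0, 42.4 and 53.5 FPKM at 500 μg/mL, and 81.4, 86.8 and 75.5 FPKM at 1000 μg/mL. No library of one group reached into the range of a neighbouring group. The group means were 11.2 ± 6.72, 30.6 ± 7.00, 47.3 ± 5.66 and 81.2 ± 5.61 FPKM (SD, n = 3), so the mean at the highest dose was 7.26-fold that of the control. Control replicate 1 was the lowest library, 4.23-fold under the mean of control replicates 2 and 3 (15.0 FPKM), and without it the ratio at the highest dose was 5.41. As differences in mean log2(FPKM + 1) from the control, the 3 doses gave 1.56, 2.19 and 2.97 in order of dose, and 0.96, 1.59 and 2.36 without control replicate 1.

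The typical catalase jgi_Trias1_52822 had the opposite order, lower at every dose than at the dose before. Its levels were 52.4, 35.7 and 36.3 FPKM in the control libraries, 25.5, 23.8 and 17.1 FPKM at 100 μg/mL, 10.5, 9.16 and 9.60 FPKM at 500 μg/mL, and 3.21, 2.53 and 1.48 FPKM at 1000 μg/mL. Neighbouring groups did not overlap here either. The means were 41.5 ± 9.49, 22.2 ± 4.45, 9.74 ± 0.661 and 2.41 ± 0.872 FPKM (SD, n = 3), and the mean at 1000 μg/mL was 17.2-fold lower than in the control, or 15.0-fold lower without control replicate 1. By fold per step, the decline was 1.87-fold from the control to 100 μg/mL, 2.27-fold from 100 to 500 μg/mL and 4.05-fold from 500 to 1000 μg/mL. The steps differ in width, so these folds are not slopes per unit of dose. The differences in mean log2(FPKM + 1) from the control were -0.87, -1.96 and -3.65 in order of dose.

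The typical catalase jgi_Trias1_71163 also had lower levels with dichlorvos, over a smaller range. It was read at 39.5, 45.8 and 60.5 FPKM in the controls, 46.7, 37.9 and 35.7 FPKM at 100 μg/mL, 29.3, 24.9 and 26.8 FPKM at 500 μg/mL, and 11.9, 15.5 and 15.4 FPKM at 1000 μg/mL. The control and 100 μg/mL libraries overlapped, while those at 500 and 1000 μg/mL lay below all of them and apart from each other. The means were 48.6 ± 10.8, 40.1 ± 5.81, 27 ± 2.18 and 14.3 ± 2.04 FPKM (SD, n = 3), so the level at the highest dose was 3.40-fold lower than in the control. On the log2(FPKM + 1) scale the differences from the control were -0.26, -0.81 and -1.69 in order of dose, and -0.39, -0.94 and -1.82 without control replicate 1.

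Another shape was seen for jgi_Trias1_48513, annotated as a typical catalase on the weaker match given above. Its levels were 12.8, 11.5 and 10.2 FPKM in the controls, 44.0, 46.8 and 29.3 FPKM at 100 μg/mL, 29.8, 26.0 and 13.3 FPKM at 500 μg/mL, and 4.14, 4.68 and 5.65 FPKM at 1000 μg/mL. All libraries at 100 and 500 μg/mL lay above all controls, and all at 1000 μg/mL lay below them. The groups at 100 and 500 μg/mL overlapped only in that replicate 1 at 500 μg/mL (29.8 FPKM) lay just above replicate 3 at 100 μg/mL (29.3 FPKM). The means were 11.5 ± 1.27, 40.1 ± 9.38, 23.0 ± 8.64 and 4.82 ± 0.765 FPKM (SD, n = 3). Relative to the control, the level was 3.48-fold higher at 100 μg/mL and 2.39-fold lower at 1000 μg/mL. The differences in mean log2(FPKM + 1) were 1.69, 0.87 and -1.11 in order of dose, and 1.76, 0.94 and -1.03 without control replicate 1.

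**Figure D1:**
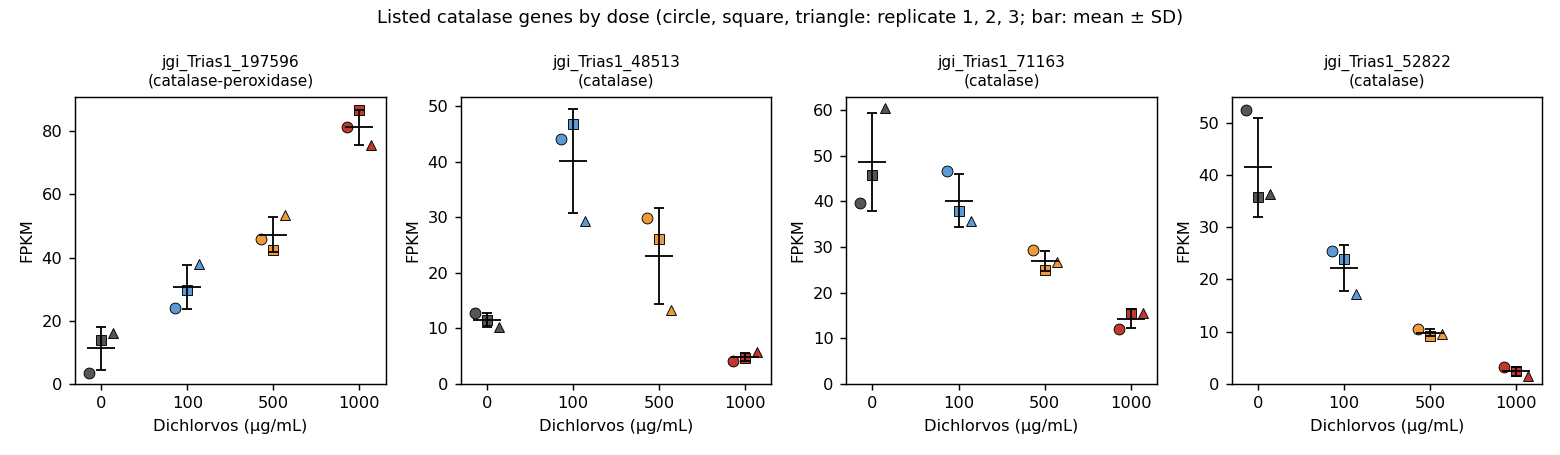
FPKM of the 4 listed catalase genes in each library (points; circle, square and triangle are replicates 1, 2 and 3) with the mean ± SD (bars), by dichlorvos dose in μg/mL shown as evenly spaced categories, each panel on its own linear axis from 0. jgi_Trias1_197596 goes from a mean of 11.2 to 81.2 FPKM, jgi_Trias1_52822 from 41.5 to 2.41 FPKM, jgi_Trias1_71163 from 48.6 to 14.3 FPKM, and jgi_Trias1_48513 is highest, at 40.1 FPKM, at 100 μg/mL.

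Over all genes tested, 2.28% were higher at each dose than at the one before with no overlap of neighbouring groups, as jgi_Trias1_197596 was, and 0.561% were lower in the same strict sense, as jgi_Trias1_52822 was. For 2.74%, all libraries at 100 μg/mL lay above all controls and all libraries at 1000 μg/mL, as for jgi_Trias1_48513. These shares describe how common each shape was, and since the listed genes were picked for their shapes, nothing is read from them. Places by level among all 11647 genes moved with these values. jgi_Trias1_52822 went from places 2998 to 3052 in the controls to places 7557 to 8653 at 1000 μg/mL, and jgi_Trias1_197596 from places 4476 to 7347 to places 1919 to 2065.

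The 5 genes that entered by annotation alone were tested with limma on log2(FPKM + 1), with Benjamini-Hochberg adjustment over all 8916 genes tested, and a gene was called at an adjusted p under 0.05 with a log2 fold change beyond 1 either way. At 1000 μg/mL, 2 of the 4 tested were called higher and 0 were called lower, where 19.2% of all genes tested were called higher and 7.81% lower. Of the same 4 genes, 1 was called higher and 0 lower at 500 μg/mL, beside 10.6% and 3.48% of all genes. jgi_Trias1_136964, called at both doses, passed the filter only through its levels there, so these counts lean on the filter. At 100 μg/mL, 0 of 4 were called in either direction by limma, beside 4.60% higher and 0.538% lower among all genes. At that dose 1 of 4 had an unadjusted p under 0.05 with limma. Over all 8916 genes tested, 1641, 2935 and 4134 had such a p in either direction, in order of dose. None of the 4 was lower at an unadjusted p under 0.05 at any dose. With control replicate 1 left out, limma gave the same counts over these 4 genes at each dose, while the shares of all genes called higher were 7.67, 16.8 and 25.9% and lower 1.05, 4.31 and 7.68% in order of dose. The NOISeq rule (a probability over 0.8 with a log2 ratio beyond 1 either way) called 0 of the 4 at any dose over all 12 libraries, beside 0.507, 1.49 and 3.30% of all 11647 genes higher and 0.129, 0.369 and 1.24% lower. Its calls depended on control replicate 1. With that library left out it called 1 of the 4, jgi_Trias1_140270, higher at 1000 μg/mL, beside 1.75, 4.20 and 7.48% of all genes higher and 0.309, 1.51 and 3.29% lower in order of dose. Centring each library on its median moved the call split over all genes at 1000 μg/mL from 1715 higher and 696 lower to 1272 higher and 1114 lower, and moved the median log2 fold change of all genes from 0.18 to -0.08.

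The catalase-peroxidase jgi_Trias1_140270 had the highest mean level of the 9 members in every group and was called higher at 1000 μg/mL. Its levels were 103, 79.1 and 78.8 FPKM in the controls, 145, 119 and 122 FPKM at 100 μg/mL, 162, 135 and 168 FPKM at 500 μg/mL, and 164, 235 and 175 FPKM at 1000 μg/mL. Every treated library lay above every control, while neighbouring doses overlapped. The means were 87.0 ± 13.9, 129 ± 13.9, 155 ± 17.7 and 191 ± 38.3 FPKM (SD, n = 3). With limma, the log2 fold change at 1000 μg/mL was 1.12 (SE 0.19, adjusted p = 0.000652), and at 500 μg/mL it was 0.83 (SE 0.19, adjusted p = 0.00913), which passed the p threshold but not the fold. At 100 μg/mL it was 0.56 (SE 0.19, adjusted p = 0.116). Without control replicate 1, limma gave 0.69 (adjusted p = 0.0199), 0.96 (adjusted p = 0.00124) and 1.25 (adjusted p = 9.20e-05) in order of dose, called only at 1000 μg/mL. With all controls, the value at 1000 μg/mL lay close to the fold threshold. The call was lost without replicate 2 of that dose (0.97), with libraries centred on their medians (0.86), or with the NOISeq rule over all libraries (probability 0.726). The NOISeq rule without control replicate 1 did call it (log2 ratio 1.28, probability 0.841).

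Set side by side, the pair of catalase-peroxidases drew closer in level with dose. The level of jgi_Trias1_140270 was 29.0, 5.70 and 4.88 times that of jgi_Trias1_197596 in control replicates 1, 2 and 3, between 3.21 and 6.03 times at 100 μg/mL, between 3.14 and 3.53 times at 500 μg/mL, and between 2.02 and 2.71 times at 1000 μg/mL. The first of these ratios came from the low reading of jgi_Trias1_197596 in control replicate 1. The typical catalases jgi_Trias1_71163 and jgi_Trias1_52822 drew apart, the former being 0.754 to 1.67 times the latter in the controls and 3.72 to 10.4 times at 1000 μg/mL. As listed genes enter both ratios, they were not tested.

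The gene described as a peroxisomal catalase, jgi_Trias1_369646, was called at no dose. Its levels were 25.5, 74.2 and 63.9 FPKM in the controls, 66.3, 86.2 and 85.5 FPKM at 100 μg/mL, 77.5, 68.3 and 118 FPKM at 500 μg/mL, and 70.7, 69.2 and 59.1 FPKM at 1000 μg/mL. Every treated group overlapped the controls. Control replicate 1 was the lowest of the 12 libraries, 2.70-fold under the mean of control replicates 2 and 3. The limma log2 fold changes were 0.66 (SE 0.34, adjusted p = 0.351), 0.77 (SE 0.34, adjusted p = 0.134) and 0.41 (SE 0.34, adjusted p = 0.376) in order of dose. They were 0.19, 0.31 and -0.06 without control replicate 1, so the sign at 1000 μg/mL rested on that library.

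The other 3 members, all typical catalases by annotation, were at low levels, where a change on the log2(FPKM + 1) scale is understated. jgi_Trias1_136964 was read at 0.12, 0.51 and 0.20 FPKM in the controls, 0.50, 0.41 and 0.80 FPKM at 100 μg/mL, 1.83, 3.14 and 2.07 FPKM at 500 μg/mL, and 2.84, 3.46 and 2.08 FPKM at 1000 μg/mL. All libraries at 500 and 1000 μg/mL lay above all others, and these doses overlapped each other. The means were 0.277, 0.570, 2.35 and 2.79 FPKM from the control to 1000 μg/mL, so jgi_Trias1_136964 passed the filter only through the upper doses. Its calls at those doses rest on the same levels that let it into the test. It was called higher by limma at 500 μg/mL (log2 fold change 1.38, SE 0.26, adjusted p = 0.00273) and at 1000 μg/mL (1.57, SE 0.26, adjusted p = 0.000511). The limma values were 1.29 (adjusted p = 0.00354) and 1.48 (adjusted p = 0.000846) without control replicate 1. At these levels the NOISeq rule, which also asks for an absolute difference, did not call it (probability 0.398 and 0.430).

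jgi_Trias1_46857 was read at 0.54, 0.33 and 0.11 FPKM in the controls, 0.98, 2.34 and 3.51 FPKM at 100 μg/mL, 0.33, 0.22 and 0.45 FPKM at 500 μg/mL, and 0.11, 0.23 and 0 FPKM at 1000 μg/mL. Only the libraries at 100 μg/mL stood above the rest, with no overlap. Its mean over all libraries, 0.762 FPKM, kept it out of the main test. Tested over all 11647 genes with no filter, limma gave a log2 fold change of 1.24 against the control at 100 μg/mL (SE 0.26, adjusted p = 0.0176) and of -1.22 from 100 to 500 μg/mL (SE 0.26, adjusted p = 0.0363), beside 3.30% of all genes called higher and 0.240% called lower in these contrasts. Values against the control were 0.02 at 500 μg/mL and -0.25 at 1000 μg/mL, neither of them called.

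jgi_Trias1_36716 varied more within groups than between most of them. It was read at 1.14, 0.82 and 0.58 FPKM in the controls, 3.41, 0.35 and 0.23 FPKM at 100 μg/mL, 1.51, 2.78 and 4.63 FPKM at 500 μg/mL, and 0.12, 0.24 and 1.42 FPKM at 1000 μg/mL. The libraries at 500 μg/mL lay above all controls, and limma gave a log2 fold change of 1.04 there (SE 0.49, adjusted p = 0.158). At 100 and 1000 μg/mL the values were 0.08 and -0.29, and it was called at no dose.

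**Figure D2:**
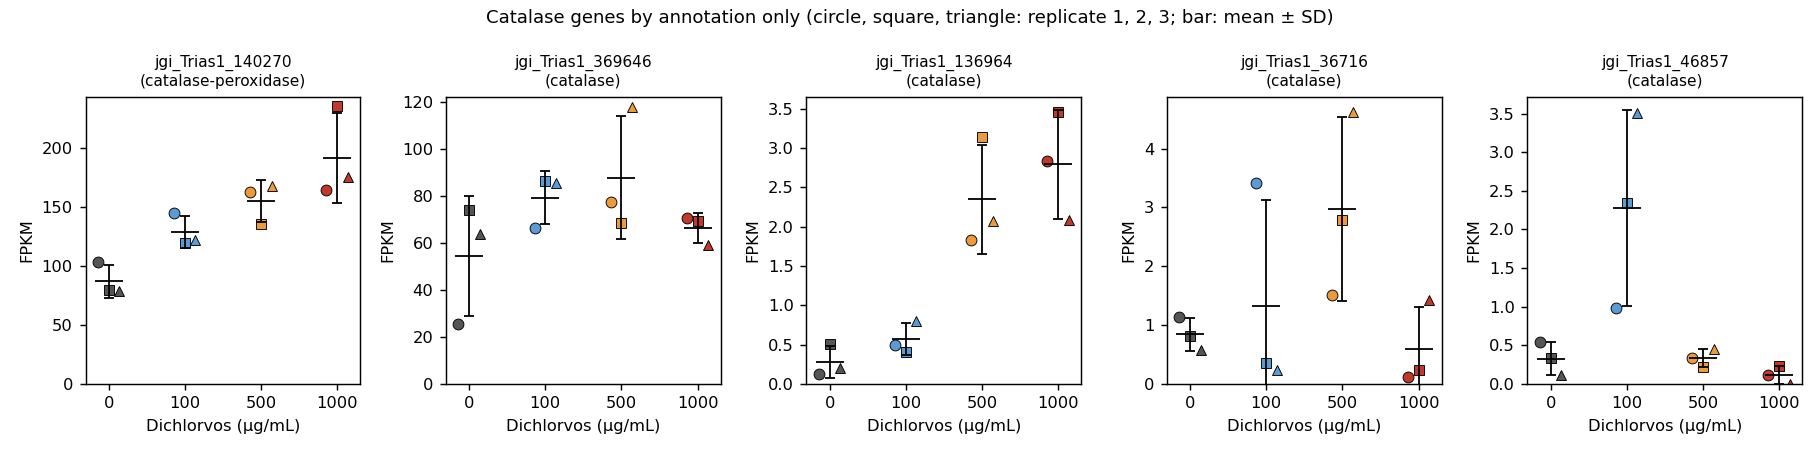
FPKM of the 5 catalase genes that entered by annotation alone in each library (points; circle, square and triangle are replicates 1, 2 and 3) with the mean ± SD (bars), by dichlorvos dose in μg/mL shown as evenly spaced categories, each panel on its own linear axis from 0. jgi_Trias1_140270 goes from a mean of 87.0 to 191 FPKM, jgi_Trias1_369646 overlaps the control at every dose, and the other 3 genes stay below 5 FPKM in all libraries.

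**Figure D3:**
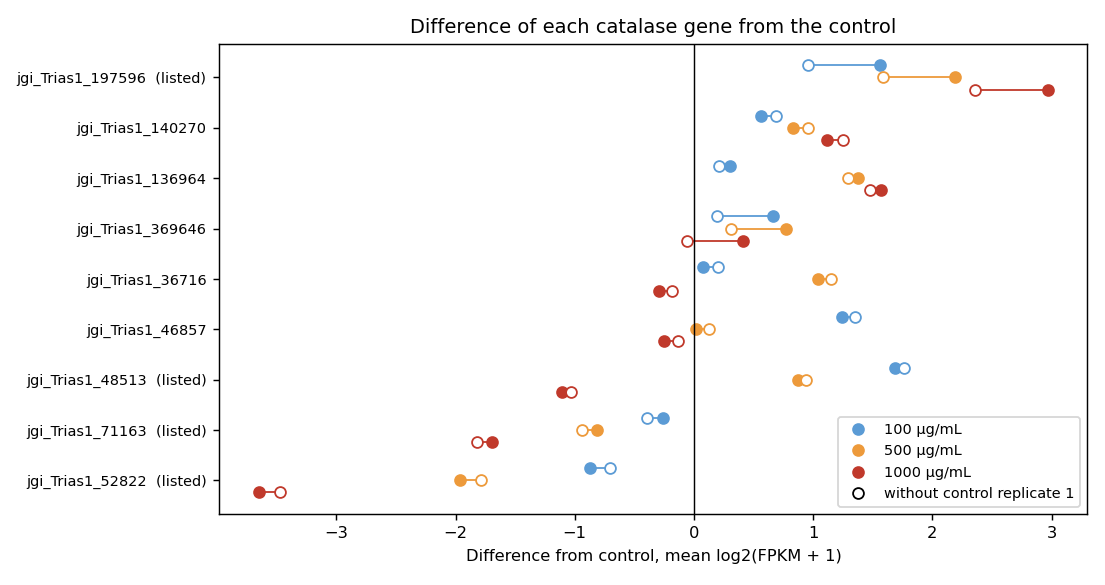
Difference from the control in mean log2(FPKM + 1) for the 9 catalase genes at 100, 500 and 1000 μg/mL dichlorvos, with all 3 controls (filled points) and without control replicate 1 (open points). The open points lie to the left for jgi_Trias1_197596, jgi_Trias1_369646, jgi_Trias1_71163 and jgi_Trias1_136964. That of jgi_Trias1_369646 crosses 0 at 1000 μg/mL, from 0.41 to -0.06.

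Summed over all 9 genes, catalase transcripts made up 256 ± 15.0 FPKM in the control, 345 ± 12.1 at 100 μg/mL, 356 ± 42.2 at 500 μg/mL and 364 ± 46.6 at 1000 μg/mL (SD, n = 3). The treated groups overlapped one another in this sum, and all lay above the controls. By class, both sums had higher means at 100 μg/mL than in the control, and at 1000 μg/mL that of the 7 typical catalases was lower and that of the 2 catalase-peroxidases higher. The typical catalases summed to 158 ± 22.1, 186 ± 12.9, 153 ± 20.2 and 91.3 ± 5.51 FPKM in order of dose, with the libraries at 1000 μg/mL (85.2 to 95.8 FPKM) below all others and the other groups overlapping. That sum joins genes of unlike response, and its lower value at 1000 μg/mL came from genes listed for their shapes. From the control to that dose, jgi_Trias1_52822 went from 41.5 to 2.41 FPKM and jgi_Trias1_71163 from 48.6 to 14.3 FPKM. The listed jgi_Trias1_48513 went from 11.5 to 4.82 FPKM. Of those that entered by annotation alone, jgi_Trias1_369646 was at 54.5 and 66.3 FPKM and not called. The rest were at low levels, among them jgi_Trias1_136964, called higher. The catalase-peroxidases summed to 98.2 ± 7.38, 159 ± 9.69, 202 ± 22.7 and 273 ± 42.8 FPKM, with no overlap between neighbouring doses.

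As a share of the FPKM of the 9 genes, the catalase-peroxidases made up 38.6 ± 5.26% in the control, 46.1 ± 2.77% at 100 μg/mL, 56.9 ± 1.06% at 500 μg/mL and 74.7 ± 2.28% at 1000 μg/mL (SD, n = 3). The highest control was replicate 1 at 44.7%, inside the range at 100 μg/mL (43.0 to 48.1%), while the other controls were at 35.5 and 35.6%. The order of the genes by mean level changed below the first place. In the control it ran jgi_Trias1_140270, jgi_Trias1_369646, jgi_Trias1_71163, jgi_Trias1_52822, jgi_Trias1_48513 and jgi_Trias1_197596, with overlapping levels among the second to the fourth and between the last pair. At 1000 μg/mL, by level in FPKM, jgi_Trias1_197596 held the second place without overlap with its neighbours, and jgi_Trias1_52822 the seventh. These sums hold the listed genes, so they are descriptions of the same values and were not tested.

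**Figure D4:**
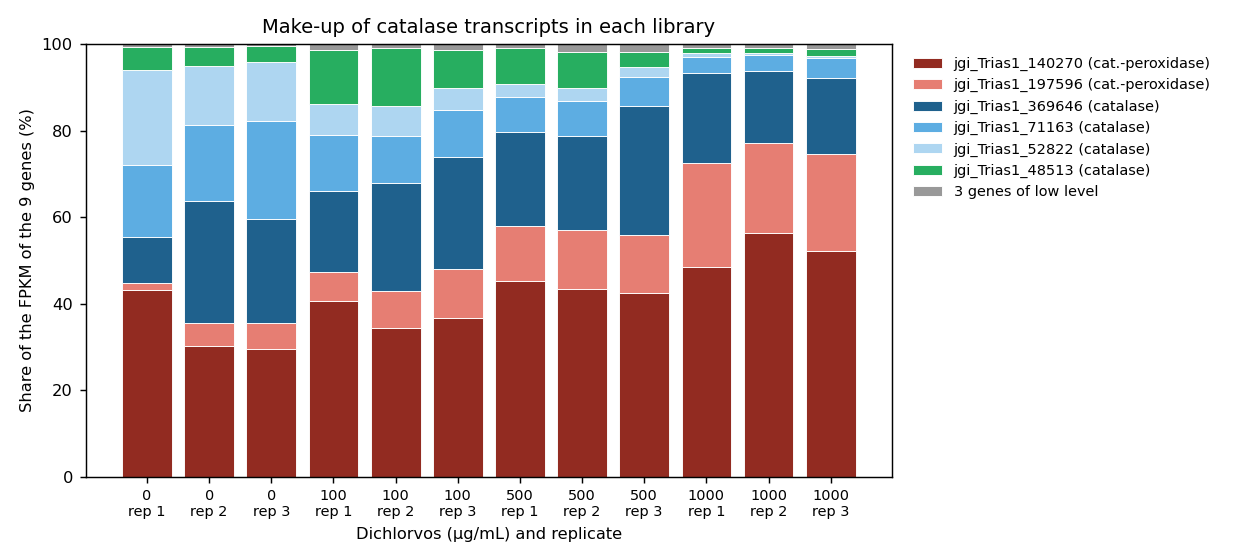
Share in percent of the summed FPKM of the 9 catalase genes taken by each gene in each of the 12 libraries, ordered by dichlorvos dose in μg/mL and replicate, with the 3 genes of low level joined. The pair of catalase-peroxidases (reds) takes 35.5 to 44.7% of the sum in the controls and 72.5 to 77.1% at 1000 μg/mL.

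Genes with levels most like each listed gene were found by Pearson's r of log2(FPKM + 1) over the 12 libraries among all genes tested, as a description, since all the libraries share the 4 doses. For jgi_Trias1_197596 they were jgi_Trias1_126557, annotated as an aspyridone synthetase trans-acting enoyl reductase (r = 0.985, mean 22.7 FPKM in the control and 505 at 1000 μg/mL), jgi_Trias1_46010, a sphingomyelin phosphodiesterase (r = 0.985), and jgi_Trias1_226115, a proline iminopeptidase (r = 0.981). For jgi_Trias1_52822 they were jgi_Trias1_74960, with no KEGG description (r = 0.978, 232 FPKM in the control and 57.0 at 1000 μg/mL), jgi_Trias1_202588, a regulatory subunit of phosphoinositide 3-kinase (r = 0.976), and jgi_Trias1_53680, a mitochondrial adenine nucleotide translocator (r = 0.975). Without control replicate 1, only 1 of the first 3 genes stayed among the first 3 for each of these members.

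For jgi_Trias1_48513 the most alike were jgi_Trias1_51495, a tRNA pseudouridine synthase (r = 0.976, means of 3.23, 11.2, 6.79 and 1.74 FPKM in order of dose), jgi_Trias1_448570, a cysteine desulfurase (r = 0.967), and jgi_Trias1_72517, described as tryprostatin B 6-hydroxylase (r = 0.964, means of 32.7, 121, 78.3 and 19.7 FPKM). For jgi_Trias1_71163 they were jgi_Trias1_54132, with no KEGG description (r = 0.967), jgi_Trias1_144878, annotated as the ubiquinone biosynthesis enzyme Coq7 (r = 0.964), and jgi_Trias1_25945, a formate dehydrogenase (r = 0.964, 194 FPKM in the control and 25.9 at 1000 μg/mL). For both members, 2 of the first 3 genes stayed there without control replicate 1. None of the 12 genes carries a catalase annotation.

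Other enzymes that handle hydrogen peroxide were counted in the same limma fit, against the shares of all genes given above. Counts at an unadjusted p under 0.05 stand beside 1641, 2935 and 4134 of all 8916 genes tested, both directions joined, in order of dose. Of 12 annotated genes for peroxide removal other than catalase (glutathione peroxidase, peroxiredoxins, cytochrome c peroxidases), 8 were tested, of which 1, 1 and 5 were called higher at 100, 500 and 1000 μg/mL and 0 were called lower at any of these doses. At an unadjusted p under 0.05, 3, 4 and 6 were higher and 0 lower, and the NOISeq rule called 0, 1 and 2 higher and 0 lower. Their median log2 fold change at 1000 μg/mL was 1.30, against 0.18 over all genes tested. The cytochrome c peroxidase jgi_Trias1_66006 was the highest of them (log2 fold change 2.24, SE 0.25, adjusted p = 1.87e-05 with limma). Its means were 0.0333, 0.377, 0.557 and 3.93 FPKM from the control to 1000 μg/mL. It was near 0 in the other groups and passed the filter only through the group in which it was called. The peroxiredoxin jgi_Trias1_200163 was the lowest, at 115 ± 15.2 FPKM in the control and 122 ± 15.0 at 1000 μg/mL (log2 fold change 0.09, adjusted p = 0.714). The counts without control replicate 1 were 1, 2 and 7, and the single call at 100 μg/mL was lost without control replicate 3 or without replicate 1 or 2 of that dose.

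Superoxide dismutases make hydrogen peroxide from superoxide, and all 5 were tested. Of them, 0, 2 and 3 were called higher in order of dose and 0 lower, and the median log2 fold changes were -0.26, -0.22 and 1.26. At an unadjusted p under 0.05 with limma, 1, 2 and 3 were higher and 1 lower at each dose. The Fe-Mn enzyme jgi_Trias1_73687 went from 8.04 ± 3.91 FPKM in the control to 40.0 ± 9.03 at 1000 μg/mL (log2 fold change 2.25, adjusted p = 0.000207 with limma). Another of the same family, jgi_Trias1_64045, was at 91.5 ± 30.7 and 62.3 ± 6.71 FPKM (-0.50, adjusted p = 0.0811 with limma). Without control replicate 1 the log2 fold changes were 2.57 for jgi_Trias1_73687 and -0.25 for jgi_Trias1_64045. The count at 500 μg/mL fell to 1 without control replicate 1 and without replicate 1 or 3 of that dose, and at 1000 μg/mL 2 were called higher without control replicate 1. With the NOISeq rule, 0, 0 and 1 were called higher in order of dose and 0 lower.

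Thioredoxins, glutaredoxins and their reductases supply electrons to peroxiredoxins and other thiol enzymes. Of 12 such genes, all tested, 0, 5 and 7 were called higher in order of dose and 0 lower. At an unadjusted p under 0.05 with limma, 1, 8 and 10 were higher and 1, 1 and 0 lower, and the NOISeq rule called 0, 2 and 4 higher and 0 lower. The thioredoxin jgi_Trias1_152954 went from 338 ± 78.8 FPKM to 2908 ± 183 at 1000 μg/mL (log2 fold change 3.13, SE 0.20, adjusted p = 1.72e-07 with limma). The thioredoxin reductase jgi_Trias1_302748 was at 1.93 ± 1.49 and 0.733 ± 0.370 FPKM (-0.61, adjusted p = 0.265 with limma), and without control replicate 1 it was called lower (-1.15, adjusted p = 0.00403), giving 8 higher and 1 lower.

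Oxidases that release hydrogen peroxide went in both directions. Of 22 genes, 17 were tested, of which 2, 4 and 6 were called higher and 0, 0 and 3 lower in order of dose. At an unadjusted p under 0.05 with limma, 7, 7 and 9 were higher and 0, 2 and 3 lower, and the NOISeq rule called 0, 1 and 1 higher and 0, 1 and 2 lower. The D-amino-acid oxidase jgi_Trias1_60293 went from 0.0400 FPKM, listed at 0 in control replicates 1 and 2, to 13.0 ± 3.72 FPKM at 1000 μg/mL (log2 fold change 3.72, SE 0.30, adjusted p = 1.23e-06 with limma). Its means at 100 and 500 μg/mL were 0.643 and 2.93 FPKM, so it passed the filter only through the upper doses. The sarcosine or L-pipecolate oxidase jgi_Trias1_55267 went from 216 ± 145 to 24.3 ± 1.17 FPKM (-2.75, SE 0.49, adjusted p = 0.000788 with limma). Control replicate 1 was at 56.1 FPKM, against 254 and 339 FPKM in the other controls. With that library left out, limma gave -0.46, -1.77 and -3.54 in order of dose, called lower at 500 and 1000 μg/mL. Without control replicate 1, the calls were 5 higher and 1 lower at 100 μg/mL, 4 higher and 3 lower at 500 μg/mL, and 6 higher and 3 lower at 1000 μg/mL. The count called higher at 100 μg/mL was 1 without replicate 1 or 2 of that dose or without replicate 2 at 500 μg/mL.

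Peroxins build the peroxisome and bring enzymes such as peroxisomal catalase into it. Of 31 genes described as peroxins, 14 of which carry the description peroxin-3, 23 were tested, and 7, 15 and 18 were called higher in order of dose and 0 lower, with 16, 18 and 19 higher and 0 lower at an unadjusted p under 0.05. The median log2 fold change at 1000 μg/mL was 1.59. The peroxin-2 gene jgi_Trias1_57999 went from 63.2 ± 26.3 to 320 ± 28.3 FPKM (2.39, SE 0.28, adjusted p = 3.31e-05 with limma). The peroxin-12 gene jgi_Trias1_57767 was at 47.6 ± 24.7 and 29.6 ± 0.863 FPKM (-0.55, adjusted p = 0.159 with limma). Without control replicate 1 the log2 fold changes were 2.17 for jgi_Trias1_57999 and -0.17 for jgi_Trias1_57767. The counts higher at 100 and 500 μg/mL moved with the setting and with single libraries. Centring on library medians gave 1 at 100 μg/mL, and fitting the 2 groups alone gave 0 there and 6 at 500 μg/mL. At 100 μg/mL the count was 12 without control replicate 1, 2 without control replicate 3 and 1 without replicate 2 of that dose. At 500 μg/mL it was 16 without control replicate 1, 8 without control replicate 3 and 9 without replicate 2 of that dose, and at 1000 μg/mL it ran from 13 to 18 with each library left out in turn. With the NOISeq rule the counts were 0, 1 and 8 higher and 0 lower.

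**Figure D5:**
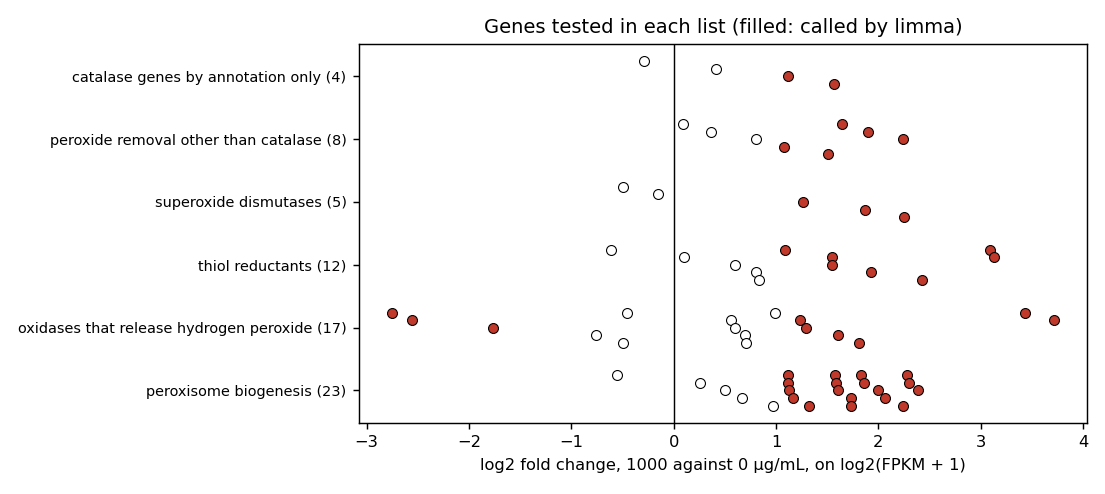
log2 fold changes at 1000 μg/mL dichlorvos against the control, on log2(FPKM + 1), for the genes tested in each list, one point a gene, filled where limma called the gene. Of the 4 catalase genes that entered by annotation alone and were tested, 2 are filled on the right, and the 3 filled points on the left belong to the oxidases that release hydrogen peroxide.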

How the data were processed

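Gene expression was measured by mRNA sequencing of 12 libraries, 3 for each of 4 dichlorvos doses. The authors deposited 1 table of FPKM values with KEGG, gene ontology and protein annotation for 11647 genes. The submitters' processing notes name BWA, Bowtie and RSEM, without versions or roles. Reads and counts were not used here, and the depth of each library is unknown, so no counting interval is given. FPKM are relative to each library's total, so a few abundant genes can shift all others.

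The members and the gene lists were chosen with earlier results of these data known. Genes with a mean of at least 1 FPKM over the 12 libraries (8916) were tested on log2(FPKM + 1), with a pseudocount of 1, by limma 3.58.1 in R 4.3.3, with all 4 groups in 1 fit and an intensity trend. As the filter used all groups, a gene near 0 in some groups could pass through the groups where it was high. Benjamini-Hochberg adjustment ran over all genes tested, and a call needed an adjusted p under 0.05 with a log2 fold change beyond 1 either way. Besides catalases, the gene of each list with the highest and the lowest log2 fold change at 1000 μg/mL was named, and for each listed gene the 3 genes most like it. Alternatives were a pseudocount of 0.1, no filter and a mean of at least 5 FPKM, rescaling to TPM, centring on library medians, the 2 groups alone, no trend, a replicate block, each library left out, and the study's NOISeq rule, rewritten in Python 3.11.15 with 0 replaced by 0.01. The handling of genes at 0 in that rewrite was changed after its counts had been seen, and 3 versions were run. Both limma and the NOISeq rewrite were run on simulated data with the same spread per gene in all groups and no deviating control. Changes were set only in well-expressed genes, so those runs do not bear on control replicate 1 or on low levels. No member identifier matched the RefSeq gene list at hand, so no sequence or position is given.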

Additional observations from a re-analysis of the deposited data

How the results depend on the processing

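Depth is unknown, so the error of low values is seen only as the spread of 3 libraries, and the size of changes under about 1 FPKM depends on the pseudocount. At 1000 μg/mL, the difference of jgi_Trias1_52822 was -4.09 with a pseudocount of 0.1. Centring on library medians gave -1.37 for jgi_Trias1_48513 and 0.86 for jgi_Trias1_140270, which lost its call. Centring without control replicate 1 gave -1.52 for jgi_Trias1_48513, -2.30 for jgi_Trias1_71163, 1.88 for jgi_Trias1_197596, 0.77 for jgi_Trias1_140270 and 1.0 for jgi_Trias1_136964, the last pair no longer called. It also turned jgi_Trias1_369646 to -0.10, -0.08 and -0.54 in order of dose, and jgi_Trias1_36716 and jgi_Trias1_136964 at 100 μg/mL to -0.10 and -0.08. At 100 μg/mL, jgi_Trias1_36716 was also negative with a pseudocount of 0.1 (-0.19), without control replicate 3 (-0.02) and without replicate 1 of that dose (-0.51), its range with each library left out being -0.51 to 0.41. The cause of these shifts was not tested. With the NOISeq rule, jgi_Trias1_140270 (1.14) and jgi_Trias1_136964 (3.34) were not called at 1000 μg/mL over all libraries. That rule called 384 genes higher and 144 lower there, against 1715 and 696 with limma, and centring raised those called lower to 1114, or 1517 without control replicate 1. The version of the NOISeq noise used here (genes at 0 in both groups left out) was chosen after the counts of the first had been seen. That first version (all replicate pairs kept) gave 396 and 154, and another (pairs at 0 left out) gave 351 and 116. Neither jgi_Trias1_140270 nor jgi_Trias1_136964 was called in any of the 3 over all 12 libraries. Without control replicate 1, the version used here called 871 genes higher and 383 lower, and jgi_Trias1_140270 was called (1.28). These counts are close to those the paper reports for this dose. As the version was chosen with counts already seen, that closeness is no check of the rewrite. With each library left out in turn, the differences at 1000 μg/mL ran from -3.82 to -3.44 for jgi_Trias1_52822, -1.21 to -1.02 for jgi_Trias1_48513, -1.82 to -1.52 for jgi_Trias1_71163, 2.36 to 3.32 for jgi_Trias1_197596, 0.97 to 1.25 for jgi_Trias1_140270, -0.06 to 0.69 for jgi_Trias1_369646 (negative without control replicate 1), -0.64 to -0.08 for jgi_Trias1_36716 and 1.44 to 1.71 for jgi_Trias1_136964. The difference of jgi_Trias1_48513 at 100 μg/mL ran from 1.57 to 1.89. All genes called higher at 1000 μg/mL ran from 1483 to 2312 and lower from 616 to 769. At 100 and 500 μg/mL, fitting the 2 groups alone gave 148 and 608 higher and 6 and 125 lower, and centring gave 107 and 512 lower. Deviations of same-numbered libraries correlated at 0.166 to 0.495 between the control and 100 μg/mL, where every pair was over 0.1, but not in every pair of any other comparison (-0.319 to 0.408), and 7 of 12 libraries correlated best with their own number. The labels give no source for a pairing. With the replicate block, the calls at 100 μg/mL were 430 higher and 51 lower, against 410 and 48, none of them a tested catalase that entered by annotation. In the same fit, 1747 genes were called higher and 714 genes lower at 1000 μg/mL, and jgi_Trias1_140270 and jgi_Trias1_136964 stayed called there, at 1.12 and 1.57, and 2 oxidases that release hydrogen peroxide were called lower at 500 μg/mL, against 0.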
